A study of Homo sapiens with 8 samples.

Results

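The E2F transcription factors were followed through 8 microarrays of ovarian serous carcinoma cells. The members were the 8 genes E2F1 to E2F8, chosen by name, of 22428 genes that could be named on the array, and they were read by 12 of the 58162 probes analysed. They were separated into 3 activators (E2F1, E2F2 and E2F3), 3 repressors (E2F4, E2F5 and E2F6) and 2 atypical members (E2F7 and E2F8). OVSAHO and KURAMOCHI, established cell lines, were each cultured with simvastatin or with L-778123, and each of the 4 groups (OVSAHO with simvastatin, OVSAHO with L-778123, KURAMOCHI with simvastatin, KURAMOCHI with L-778123) held 2 arrays. Simvastatin blocks HMG-CoA reductase, the enzyme that commits acetyl units to the mevalonate pathway, and L-778123 inhibits the farnesyl and geranylgeranyl transferases, which attach products of that pathway to proteins. No arrays of untreated cells were analysed here, so every drug contrast below sets one drug against the other, and the dose and time of the drugs on the arrays were not given in the sources used here. The question behind the design was which transcripts simvastatin changed that the inhibition of prenylation did not.

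E2F proteins bind DNA at the promoters of genes for DNA replication and cell division, most of them paired with a DP protein. In resting cells the pocket proteins of the retinoblastoma family cover the E2Fs and keep these genes silent, and cyclin-dependent kinases release the E2Fs when a cell commits to division. Activator E2Fs then switch on the genes of S phase, the classical repressors hold genes silent in resting cells, and the atypical members act without a DP partner and shut E2F genes down again late in S phase. Serous carcinomas often carry lesions of the retinoblastoma pathway or extra copies of the cyclin E gene, which act on the same switch.

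Levels are given as the log2 of the array signal relative to the 75th percentile of that array, so that 0 is the 75th percentile and a step of 1 is a doubling. Levels of different probes were not set against each other, because a probe's brightness depends on its own sequence. Between 51.8% and 57.5% of probes lay well above background on each array, no spot of the arrays was saturated, and replicate arrays correlated at 0.995 to 0.996 over probes. All 8 main probes, the brightest of each gene, were well above background on 8 of 8 arrays. The 7 serous carcinoma markers examined (PAX8, WT1, MUC16, EPCAM, KRT7, KRT8 and KRT18) were well above background on every array. MUC16 was dim on some, with a lowest level of -3.32. Of 6 markers of other cell types, the endothelial PECAM1 was above background on 0 arrays. The fibroblast collagens COL1A1 and COL3A1 were so only on the 4 KURAMOCHI arrays, where COL3A1 reached 1.58. PTPRC, CDH5 and ALB were dim but above background on all arrays. The summed linear level of the serous markers was 499 to 509 in OVSAHO with simvastatin and 611 to 658 with L-778123, and 333 to 348 and 624 to 646 in KURAMOCHI. That of the other cell type markers was 0.475 to 0.502 and 0.508 to 0.517 in OVSAHO, and 3.01 to 3.09 and 3.71 to 3.88 in KURAMOCHI. Both sums were thus lower with simvastatin in each line, and their part in the results below was not tested. The 8 arrays shared 1 slide and each group had its own places on it, so that effects of group and place cannot be told apart.

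The promoters of E2F genes can themselves hold E2F motifs. The 4 forms of 8 bases TTTCGCGC, TTTGGCGC, TTTCCCGC and TTTGCCGC, were searched on both strands in the 250 bases before each start in the RefSeq promoter table (GRCh38.p14), which held 7 starts of 6 members. A match lay before all 3 activators, at 3 of their 4 starts, and before 0 of the 3 starts of E2F4, E2F6 and E2F7. Over all 35116 promoters of the table, 2.79% held a match. The windows of the activators are shown for where the matches lie, and that of E2F7, the member that moved most in the drug contrasts, for comparison. Sequences run 5′ to 3′ on the strand of the gene, and capitals mark the matches, which read in reverse complement where they lie on the opposite strand. They come from chr20:33686386-33686635 (minus strand) for E2F1, chr1:23531234-23531483 (minus strand) for E2F2, chr6:20401629-20401878 (plus strand) for E2F3 and chr12:77065570-77065819 (minus strand) for E2F7.
E2F1: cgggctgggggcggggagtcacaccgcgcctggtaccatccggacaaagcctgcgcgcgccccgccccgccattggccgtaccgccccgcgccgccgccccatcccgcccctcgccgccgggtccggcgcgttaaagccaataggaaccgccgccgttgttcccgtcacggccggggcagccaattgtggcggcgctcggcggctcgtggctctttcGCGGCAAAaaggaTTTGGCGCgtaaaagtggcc
E2F2: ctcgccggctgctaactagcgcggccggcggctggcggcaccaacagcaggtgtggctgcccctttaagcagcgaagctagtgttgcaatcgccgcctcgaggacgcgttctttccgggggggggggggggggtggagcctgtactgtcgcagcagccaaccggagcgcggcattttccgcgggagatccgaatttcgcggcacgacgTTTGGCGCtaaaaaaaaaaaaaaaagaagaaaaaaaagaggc
E2F3: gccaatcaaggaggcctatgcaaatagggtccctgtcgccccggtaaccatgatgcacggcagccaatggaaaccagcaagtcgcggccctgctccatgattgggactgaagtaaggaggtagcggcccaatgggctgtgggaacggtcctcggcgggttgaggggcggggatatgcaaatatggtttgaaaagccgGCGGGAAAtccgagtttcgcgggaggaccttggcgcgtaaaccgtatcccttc
E2F7: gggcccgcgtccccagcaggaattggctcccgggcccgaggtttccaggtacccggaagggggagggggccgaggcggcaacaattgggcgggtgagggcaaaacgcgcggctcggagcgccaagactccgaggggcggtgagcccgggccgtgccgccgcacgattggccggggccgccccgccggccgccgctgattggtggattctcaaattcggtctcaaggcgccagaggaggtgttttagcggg
The matches of E2F1 began 33 and 20 bases before the start, that of E2F2 began 42 bases before it and that of E2F3 began 53 bases before it. A second start listed for E2F3 had no match. A match is a run of letters and was not tested for binding.

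Among the activators, E2F1 and E2F2 were lower with simvastatin than with L-778123 in both lines, and E2F3 was at nearly the same level. E2F1, the activator best known for driving cells into S phase, stood at 2.34 and 2.39 on the 2 OVSAHO arrays with L-778123 and at 0.26 and 0.26 on those with simvastatin. The KURAMOCHI arrays read 2.06 and 1.97 with L-778123 and 0.70 and 0.68 with simvastatin. No simvastatin array came near an L-778123 array, and the order of the lines turned over: OVSAHO was the higher line with L-778123 and the lower line with simvastatin. By limma, with p-values adjusted over all 33753 probes tested, E2F1 fell 4.30-fold in OVSAHO (log2 fold change -2.11, SE 0.058, adjusted p = 2.04e-05) and 2.50-fold in KURAMOCHI (log2 fold change -1.32, SE 0.058, adjusted p = 0.000189). The E2F1 probe was printed 10 times on each array, and the SD over its spots was 0.029 to 0.108, a measure of the technical spread within an array only. In bulk RNA, fewer dividing cells and less E2F1 RNA per cell cannot be told apart, and this holds for each value below. The labels do not say whether the 2 arrays of a group came from separate cultures, so the p-values measure the spread between these arrays, which may be technical.

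E2F2, an activator with much the same role, gave 3.37 and 3.54 in OVSAHO with L-778123 and 2.10 and 1.97 with simvastatin. In KURAMOCHI it gave 3.87 and 3.84 with L-778123 and 3.03 and 2.94 with simvastatin. The 4 groups kept apart, with KURAMOCHI higher than OVSAHO under either drug. The log2 fold change was -1.42 in OVSAHO (SE 0.087, limma adjusted p = 0.000142) and -0.87 in KURAMOCHI (SE 0.087, adjusted p = 0.00161), a 1.83-fold fall that stayed under the 2-fold threshold.

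E2F3, the third activator, was read by 2 probes. Its main probe gave 3.29 and 3.13 in OVSAHO with L-778123 and 3.16 and 3.27 with simvastatin, groups that overlapped. KURAMOCHI arrays gave 3.46 and 3.42 with L-778123 and 3.36 and 3.29 with simvastatin. The log2 fold change was 0.0056 in OVSAHO (95% confidence interval -0.19 to 0.20, limma adjusted p = 0.960) and -0.11 in KURAMOCHI (95% confidence interval -0.31 to 0.08, adjusted p = 0.322). The sign of the OVSAHO change turned under some other settings.

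**Figure D1:**
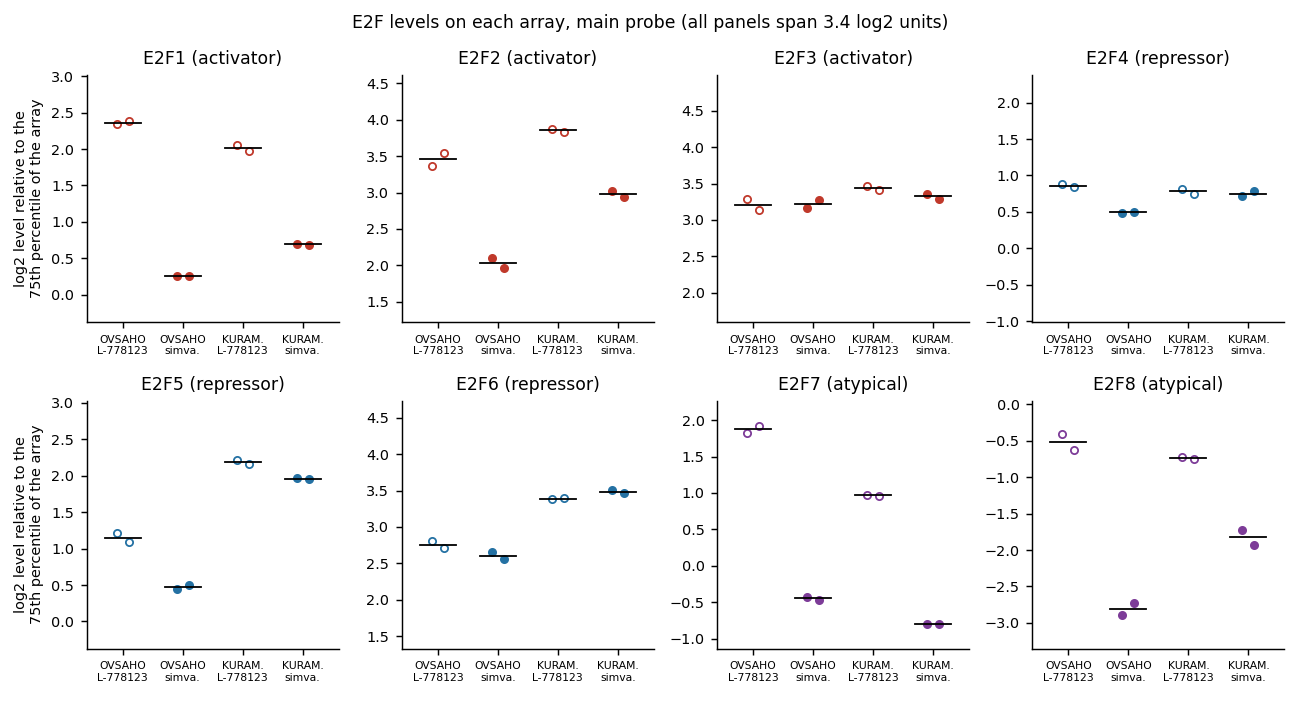
Log2 level of the main probe of each E2F gene relative to the 75th percentile of the array (y axis) on the 2 arrays of each group (x axis); open points are L-778123, filled points simvastatin, lines the group means, red activators, blue repressors and purple atypical members. E2F1, E2F2, E2F7 and E2F8 drop with simvastatin in both lines, E2F3 stays level, and E2F5 and E2F6 are set apart mainly by line.

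The repressors moved less than E2F1 and E2F2 or the atypical members, and none of the 3 reached a 2-fold change in either line. E2F4, which occupies promoters of resting cells together with pocket proteins, read 0.88 and 0.84 in OVSAHO with L-778123 and 0.49 and 0.50 with simvastatin. In KURAMOCHI it read 0.82 and 0.75 with L-778123 and 0.72 and 0.78 with simvastatin. The OVSAHO groups were apart and the KURAMOCHI groups overlapped. Its log2 fold change was -0.36 in OVSAHO (SE 0.058, limma adjusted p = 0.00401) and -0.035 in KURAMOCHI (95% confidence interval -0.18 to 0.11, adjusted p = 0.680).

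E2F5, the close relative of E2F4, read 1.21 and 1.09 in OVSAHO with L-778123 and 0.44 and 0.50 with simvastatin. KURAMOCHI arrays read 2.21 and 2.17 with L-778123 and 1.96 and 1.96 with simvastatin. All 4 KURAMOCHI values lay above all 4 OVSAHO values. The drug contrast was a log2 fold change of -0.68 in OVSAHO (SE 0.065, limma adjusted p = 0.000622) and -0.23 in KURAMOCHI (SE 0.065, adjusted p = 0.0437). The small KURAMOCHI change was near the threshold, and its adjusted p rose to as much as 0.159 with 1 array left out.

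E2F6, which represses without pocket proteins and as part of a polycomb complex, was read by 3 probes. The main probe gave 2.81 and 2.71 in OVSAHO with L-778123 and 2.65 and 2.56 with simvastatin. It gave 3.39 and 3.39 in KURAMOCHI with L-778123 and 3.51 and 3.46 with simvastatin. The lines were far apart and the drugs close together within each line. The log2 fold change was -0.15 in OVSAHO (95% confidence interval -0.32 to 0.01, limma adjusted p = 0.101) and 0.094 in KURAMOCHI (95% confidence interval -0.07 to 0.26, adjusted p = 0.322). With normexp background correction, the OVSAHO change was -0.24 and passed (adjusted p = 0.0127).

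Both atypical members fell in both lines. E2F7, itself switched on in S phase and a repressor of E2F1, read 1.82 and 1.92 in OVSAHO with L-778123 and -0.43 and -0.46 with simvastatin. The KURAMOCHI arrays read 0.97 and 0.96 with L-778123 and -0.79 and -0.80 with simvastatin. OVSAHO was the higher line with either drug, and the drugs were apart by more than the lines. E2F7 fell 4.99-fold in OVSAHO (log2 fold change -2.32, SE 0.059, limma adjusted p = 1.96e-05) and 3.39-fold in KURAMOCHI (log2 fold change -1.76, SE 0.059, adjusted p = 0.000115).

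E2F8, the partner of E2F7 in dimers of atypical E2Fs, read -0.41 and -0.62 in OVSAHO with L-778123 and -2.89 and -2.72 with simvastatin. In KURAMOCHI it read -0.72 and -0.75 with L-778123 and -1.73 and -1.93 with simvastatin. The lines were close with L-778123 and apart with simvastatin, where OVSAHO was lower. E2F8 fell 4.89-fold in OVSAHO (log2 fold change -2.29, SE 0.11, limma adjusted p = 7.27e-05) and 2.13-fold in KURAMOCHI (log2 fold change -1.09, SE 0.11, adjusted p = 0.00168). Its probe lay below the 75th percentile on every array, and normexp background correction gave smaller changes, -1.50 in OVSAHO and -0.79 in KURAMOCHI, the latter under 2-fold. Without replicate 2 of KURAMOCHI with simvastatin, the KURAMOCHI change was -0.99, just under 2-fold.

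**Figure D2:**
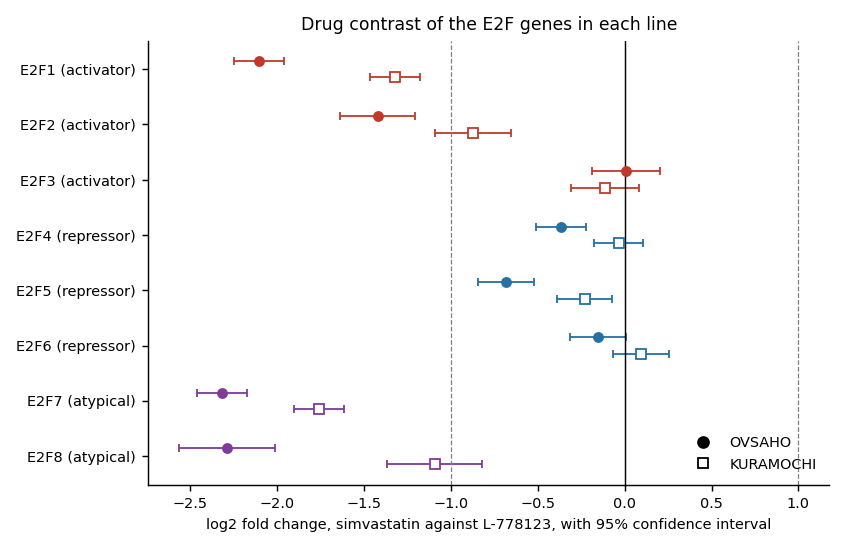
Log2 fold change of simvastatin against L-778123 (x axis) for each E2F gene (y axis) with its 95% confidence interval from limma, in OVSAHO (filled circles) and KURAMOCHI (open squares); dashed lines mark a 2-fold change. E2F1, E2F7 and E2F8 lie beyond 2-fold lower in both lines, E2F2 in OVSAHO, and the 3 repressors and E2F3 inside it.

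Counted over the members, 4 of 8 (E2F1, E2F2, E2F7 and E2F8) were at least 2-fold lower with an adjusted p under 0.05 in OVSAHO, where 11% of all probes tested were called in either direction and 6.19% were called lower. In KURAMOCHI, 3 of 8 (E2F1, E2F7 and E2F8) were called lower, against 5.59% of all probes in either direction and 3.54% lower. None was called higher in either line. By the adjusted p alone, 6 members fell in OVSAHO and 5 in KURAMOCHI, where 25.1% and 17.3% of all probes did so. The median log2 fold change of the 8 members was -1.05 in OVSAHO and -0.55 in KURAMOCHI, beside 0.014 and 0.0017 over all probes tested. By class, 2 of 3 activators, 0 of 3 repressors and 2 of 2 atypical members were called lower in OVSAHO, and 1 of 3, 0 of 3 and 2 of 2 in KURAMOCHI. The median changes of activators, repressors and atypical members were -1.42, -0.36 and -2.30 in OVSAHO and -0.87, -0.035 and -1.43 in KURAMOCHI.

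The other probes of E2F3, E2F6 and E2F7 had wider errors than the main ones. The second E2F3 probe changed by 0.12 in OVSAHO (adjusted p = 0.651) and by -0.032 in KURAMOCHI (adjusted p = 0.920). The second E2F6 probe changed by -0.20 in OVSAHO (adjusted p = 0.0990) and the third, which the array design assigns to another transcript of the gene, by 0.079 (adjusted p = 0.718). In KURAMOCHI these E2F6 probes changed by 0.044 (adjusted p = 0.720) and 0.12 (adjusted p = 0.625). The second E2F7 probe was not well above background on either simvastatin array of each line. It was at least 2.29-fold lower with simvastatin in OVSAHO (limma adjusted p = 0.0338). Only OVSAHO with L-778123 had both arrays above background, and the probe was tested through that group alone, so its p lends no support to the change of the main probe. In KURAMOCHI it was above background on only 1 of the 2 L-778123 arrays and no bound could be set.

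**Figure D3:**
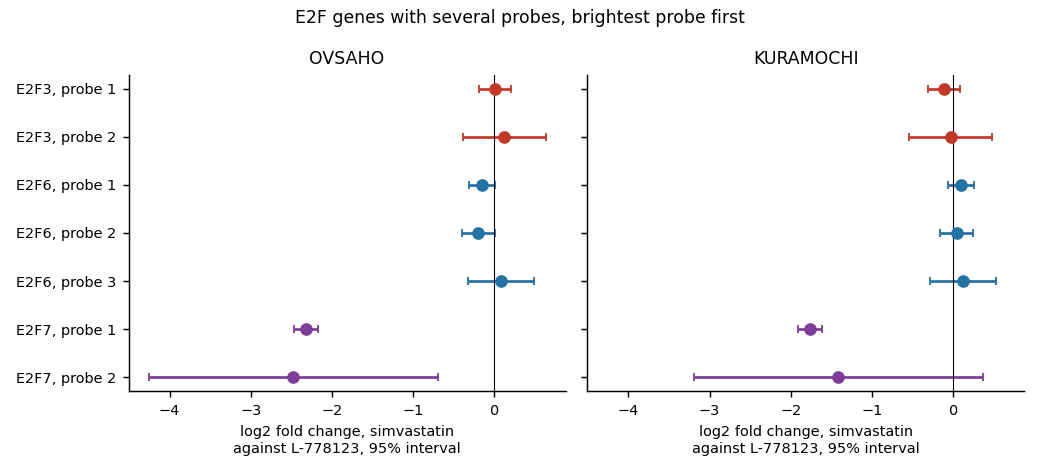
Log2 fold change of simvastatin against L-778123 with its 95% confidence interval (x axis) for every probe of the E2F genes with several probes (y axis, brightest first), in OVSAHO (left) and KURAMOCHI (right). The intervals of all E2F3 and E2F6 probes span 0, and both E2F7 probes lie below 0 in OVSAHO, the second with a wide interval and simvastatin arrays not well above background.

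Whether the drug contrast differed between the lines was tested as the OVSAHO change minus the KURAMOCHI change. The same 8 arrays enter this test and the contrasts above. It passed an adjusted p of 0.05 for 6 of 8 members, all of them further down in OVSAHO, where 22.9% of all probes passed and 11.7% passed in that direction. E2F8 differed by -1.20 (SE 0.16, limma adjusted p = 0.00559), E2F1 by -0.78 (SE 0.082, adjusted p = 0.00281) and E2F7 by -0.56 (SE 0.083, adjusted p = 0.00810). E2F2 differed by -0.55 (adjusted p = 0.0287), E2F5 by -0.45 (adjusted p = 0.0211) and E2F4 by -0.33 (adjusted p = 0.0387). E2F3 differed by 0.12 (95% confidence interval -0.16 to 0.40, adjusted p = 0.489) and E2F6 by -0.25 (95% confidence interval -0.48 to -0.02, adjusted p = 0.111). The count rests on these arrays: when each array was left out in turn, 3 to 5 members passed. E2F1, E2F7 and E2F8 passed in 8 of these 8 fits, E2F2 and E2F5 in 2 and E2F4 in 0, and without a filter on dim probes the count was 3. With the median over both E2F7 probes, the E2F7 difference was -0.81 with an adjusted p of 0.273.

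Between the lines, averaged over the drugs, 1 of 8 members was called at 2-fold, where 33.7% of all probes were. That member was E2F5, 2.40-fold lower in OVSAHO (log2 difference -1.26, SE 0.046, limma adjusted p = 2.26e-06). E2F6 was 0.76 lower in OVSAHO on the log2 scale (adjusted p = 1.88e-05), and its other probes gave differences of -0.72 and -0.63. E2F2 had a difference of -0.67 (adjusted p = 0.000121), E2F8 of -0.38 (adjusted p = 0.00504) and E2F3 of -0.17 (adjusted p = 0.0332, up to 0.0965 with 1 array left out). E2F7 was the only main probe higher in OVSAHO, by 0.63 (adjusted p = 2.70e-05, up to 0.0607 under other settings). Its dim second probe gave 0.61 (adjusted p = 0.314). E2F4 had a difference of -0.090 (adjusted p = 0.0890) and E2F1 of -0.040 (adjusted p = 0.400). The E2F1 average hid a crossing, since OVSAHO exceeded KURAMOCHI by 0.35 with L-778123 (adjusted p = 0.00230) and was lower with simvastatin, by a difference of -0.43 (adjusted p = 0.000895).

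E2F8 showed a related pattern, with OVSAHO and KURAMOCHI 0.22 apart with L-778123 (95% confidence interval -0.06 to 0.49, adjusted p = 0.131) and a difference of -0.98 with simvastatin (adjusted p = 0.000417). For E2F4 the lines differed by 0.074 with L-778123 (adjusted p = 0.297) and by -0.25 with simvastatin (adjusted p = 0.00876). E2F5 differed by -1.04 with L-778123 and by -1.49 with simvastatin. From highest to lowest, E2F1 ran OVSAHO with L-778123, KURAMOCHI with L-778123, KURAMOCHI with simvastatin, OVSAHO with simvastatin. E2F7 ran OVSAHO then KURAMOCHI with L-778123, and OVSAHO then KURAMOCHI with simvastatin. E2F5 put both KURAMOCHI groups above both OVSAHO groups, and E2F6 did the same. In these orders no neighbouring groups of E2F1, E2F5, E2F6 or E2F7 overlapped at the main probe. The share of all probes whose groups kept apart was not counted, so this only describes the values.

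The DP partners, which give classical E2Fs their DNA-binding dimer, changed by less than 2-fold. TFDP1, the main partner, fell by 0.60 on the log2 scale in OVSAHO (SE 0.061, limma adjusted p = 0.000796) and by 0.22 in KURAMOCHI (adjusted p = 0.0443). Its arrays read 4.25 and 4.23 in OVSAHO with L-778123 and 3.64 and 3.63 with simvastatin, so the groups were well apart at a change under 2-fold. TFDP2 fell by 0.33 in OVSAHO (adjusted p = 0.00843) and had a change of -0.041 in KURAMOCHI (adjusted p = 0.664). TFDP3 had changes of -0.39 and 0.11 with adjusted p-values of 0.402 and 0.844, and was not well above background on 2 of the 4 KURAMOCHI arrays. By the adjusted p alone, 2 of 3 fell in OVSAHO and 1 in KURAMOCHI, where 25.1% and 17.3% of all probes did so. At 2-fold 0 of 3 were called in either line, which with 11% and 5.59% of all probes called is no result about these genes.

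Among the pocket proteins, which bind and silence E2Fs, RB1 and RBL2 stayed level while RBL1, itself an E2F target gene, fell. RBL1 read 0.35 and 0.45 in OVSAHO with L-778123 and -0.49 and -0.41 with simvastatin, and -0.75 and -0.65 against -2.13 and -1.79 in KURAMOCHI. Its log2 fold change was -0.85 in OVSAHO (SE 0.12, limma adjusted p = 0.00275) and -1.26 in KURAMOCHI (SE 0.12, adjusted p = 0.00144). RB1, the retinoblastoma gene, changed by 0.0032 in OVSAHO (adjusted p = 0.976) and by 0.10 in KURAMOCHI (adjusted p = 0.325). RBL2 changed by -0.042 (adjusted p = 0.639) and -0.014 (adjusted p = 0.894). The lines themselves differed: averaged over drugs, RB1 had a difference of -1.76 between OVSAHO and KURAMOCHI and RBL1 one of 1.31, both called. At 2-fold 33.7% of all probes were called between the lines. RBL2 had a difference of -0.48, which passed the adjusted p but not 2-fold.

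The MuvB core binds pocket proteins and E2F4 in resting cells and MYBL2 and FOXM1 in dividing cells. Of 8 genes of this group, 4 were called lower in OVSAHO and 1 in KURAMOCHI, where 6.19% and 3.54% of all probes were, with medians of -0.99 and -0.27. MYBL2, the B-MYB factor and an E2F target, fell by 1.92 on the log2 scale in OVSAHO (adjusted p = 3.34e-05) and by 1.67 in KURAMOCHI (adjusted p = 0.000163). FOXM1, which drives the genes of mitosis, fell by 1.35 in OVSAHO and by 0.85 in KURAMOCHI, a difference between lines of -0.49 (adjusted p = 0.0140). MYBL1 fell by 1.24 and 0.89. Of the core subunits, LIN9 fell by 1.13 in OVSAHO and 0.39 in KURAMOCHI, and LIN52 fell by 0.85 in OVSAHO and had a change of -0.15 in KURAMOCHI (adjusted p = 0.270). RBBP4 fell by 0.39 in OVSAHO and had a change of -0.11 in KURAMOCHI (adjusted p = 0.296). LIN37 rose by 0.54 in OVSAHO (adjusted p = 0.000767) and LIN54 had changes of 0.077 and 0.018 that did not pass.

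The polycomb complex that holds E2F6 was described by its subunits. Of its 9 genes examined (MGA, MAX, L3MBTL2, PCGF6, RING1, RNF2, RYBP, YAF2 and CBX3), 0 were called in either line, near the 11% and 5.59% of all probes called, and the medians were -0.057 in OVSAHO and 0.066 in KURAMOCHI. MAX, a shared dimer partner that also serves MYC, rose by 0.34 in both lines (adjusted p = 0.00399 and 0.00724). CBX3, a heterochromatin protein, fell by 0.24 in OVSAHO (adjusted p = 0.0165). Between lines, 4 of the 9 were lower in OVSAHO by the adjusted p, with differences of -0.69 for RYBP, -0.57 for RING1, -0.33 for L3MBTL2 and -0.25 for MAX. YAF2 and PCGF6 were higher in OVSAHO, by 1.36 and 1.25. Of all probes, 33.7% were called between the lines even at 2-fold, so these counts are no result about the complex.

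Genes linked to the turnover of E2F proteins, among them an inhibitor of it, were mostly lower with simvastatin. SKP2, an F-box protein, fell by 1.12 in OVSAHO (adjusted p = 7.70e-05) and by 1.13 in KURAMOCHI (adjusted p = 0.000242). CCNF, cyclin F, fell by 1.02 and 0.81, and FBXO5, the inhibitor of the anaphase-promoting complex, fell by 1.01 and 0.68. FZR1, the activator of that complex in G1, had changes of -0.032 (adjusted p = 0.795) and -0.29 (adjusted p = 0.0611). In all, 3 of 4 were called lower in OVSAHO and 1 of 4 in KURAMOCHI, with 6.19% and 3.54% of all probes called lower.

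The genes that E2Fs are known to switch on at the start of S phase were, like E2F1, mostly lower with simvastatin in both lines. Of 41 such genes tested (POLA2 had no named probe), 26 were called lower in OVSAHO and 21 in KURAMOCHI, where 6.19% and 3.54% of all probes were, and 0 were called higher. Their median log2 fold change was -1.29 in OVSAHO and -1.001 in KURAMOCHI. By the adjusted p alone, 40 fell in OVSAHO, with WEE1 the exception, and 38 in KURAMOCHI, with WEE1, SLBP and CASP8AP2 the exceptions. Of all probes, 25.1% and 17.3% fell by this rule. MCM10, needed to fire replication origins, fell by 2.96 in OVSAHO (adjusted p = 2.01e-05) and by 1.71 in KURAMOCHI (adjusted p = 0.000198). RRM2, the regulated subunit of ribonucleotide reductase, fell by 2.65 and 1.76, and GINS2, of the replicative helicase, by 2.27 and 1.29. UHRF1, which guides maintenance DNA methylation, fell by 2.22 and 1.44. CCNE2, cyclin E2, fell by 2.07 and 1.71, and ORC1, the largest subunit of the origin recognition complex, by 1.07 and 1.66. ORC1 was among 3 of these genes, with PRIM1 and RRM1, that fell further in KURAMOCHI by the test of the difference, against 16 that fell further in OVSAHO. Of all probes, 22.9% passed that test, and 11.7% passed with the lower change in OVSAHO. In the promoter table, 28.3% of the 53 starts of this list's genes held one of the E2F motifs searched.

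Of 23 genes of G2 and mitosis tested (PLK1 had no named probe), 19 were called lower in OVSAHO and 5 in KURAMOCHI. Of all probes, 6.19% and 3.54% were called lower, and the medians of the list were -1.21 and -0.86. All 23 fell by the adjusted p in each line, which 25.1% and 17.3% of all probes did. KIF23, a kinesin of cytokinesis, fell by 1.54 and 1.25, CCNA2, cyclin A2, by 1.51 and 1.05 and CDK1, the mitotic kinase, by 1.42 and 1.17. BUB1B, of the spindle checkpoint, fell by 1.47 and 0.86, and AURKB, of the chromosomal passenger complex, by 1.36 and 1.23. At 22 starts of this list's genes, 9.09% held a motif.

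Apoptosis genes linked to E2F1 moved in both directions. By the adjusted p alone, 7 rose and 1 fell in OVSAHO (MAP3K5, a stress kinase, by 0.23), and 5 rose and 1 fell in KURAMOCHI. Of all probes, 25.1% and 17.3% fell by this rule. The share of all probes that rose is not given here, so the counts of genes that rose by this rule cannot be judged. Of 12 tested, 3 were called higher in each line, where 4.78% of all probes in OVSAHO and 2.05% in KURAMOCHI were, and 0 were called lower, with medians of 0.59 in OVSAHO and 0.18 in KURAMOCHI. BBC3, which encodes the BH3-only protein PUMA, rose by 3.72 on the log2 scale in OVSAHO (SE 0.071, adjusted p = 1.28e-05) and by 1.17 in KURAMOCHI (adjusted p = 0.000368). HRK, another BH3-only gene, rose by 1.25 and 1.01, and BCL2L11, which encodes BIM, by 0.80 and 1.11. TP53INP1, a stress gene of the p53 network, rose by 1.18 and 0.37. DIABLO, which frees caspases from their inhibitors, rose by 0.81 in OVSAHO and had a change of 0.27 in KURAMOCHI (adjusted p = 0.117). APAF1, the core of the apoptosome and an E2F target gene, had a change of 0.049 in OVSAHO (adjusted p = 0.765) and fell by 0.49 in KURAMOCHI (adjusted p = 0.0298).

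**Figure D4:**
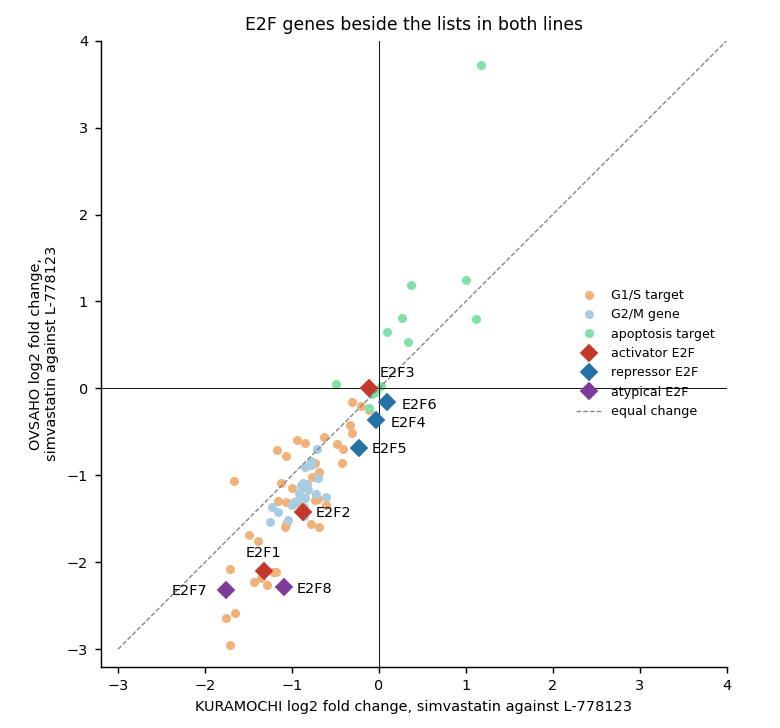
Log2 fold change of simvastatin against L-778123 in OVSAHO (y axis) and KURAMOCHI (x axis) for the E2F genes (diamonds) and for the S phase targets, genes of G2 and mitosis and apoptosis genes (circles); the dashed line marks an equal change in both lines. E2F1, E2F2, E2F7 and E2F8 lie among the S phase targets, mostly below the line of equal change, while E2F3, E2F4 and E2F6 lie near 0, and BBC3 stands alone at 3.72 in OVSAHO.

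**Figure D5:**
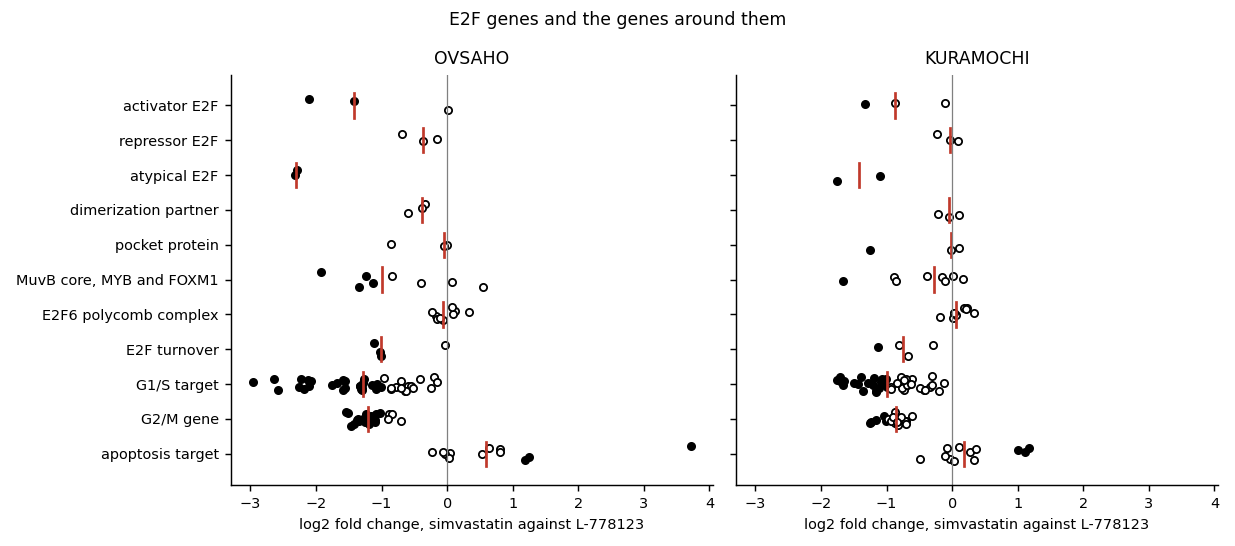
Log2 fold change of simvastatin against L-778123 (x axis) for every gene of each list (y axis) in OVSAHO (left) and KURAMOCHI (right); filled points were called (adjusted p under 0.05 and at least 2-fold), open points were not, and red bars are list medians. The S phase targets and the genes of G2 and mitosis lie below 0 in both panels, the polycomb complex of E2F6 lies around 0, and the called apoptosis genes lie above 0.

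Genes with patterns most like each member were sought among 16941 other genes by Pearson correlation over the 8 arrays, which share the 2 lines and 2 drugs, so that high values are common. E2F1 was most like FOXM1 (r = 0.998), MYBL1 and NDC80, the last a kinetochore gene. E2F2 was most like RFWD3 (r = 0.998), POC1A and TACC3. The nearest to E2F7 were TK1 (r = 0.999), the thymidine kinase of S phase, CDCA5 and the histone gene H3C15. E2F8 was nearest to PAICS (r = 0.998), an enzyme of purine synthesis, LZTS1 and ORC6. For the repressors, the nearest genes were SLC16A1 (r = 0.989), UACA and TIPIN for E2F4, DLEU1 (r = 0.999), PALMD and NUP35 for E2F5, and SEC63 (r = 0.999), GFPT1 and ZSCAN32 for E2F6. The nearest to E2F3 were PIN4 (r = 0.990), RC3H2 and STPG4.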

How the data were processed

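Total RNA was labelled with 1 color and hybridized to Agilent SurePrint G3 arrays for human transcripts, 2 for each of 4 groups, grouped by the labels. The authors extracted the images with Agilent Feature Extraction 11.5.1.1 (per the labels' processing notes). They deposited scanner files with intensity values, the processed signal being already background-subtracted, together with a table of their normalized intensities. The log2 of the deposited table correlated with the log2 scanner values at 0.999 or more and was used as an alternative.

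Control and outlier spots were left out, spots of a probe were averaged, and log2 processed signal minus the 75th percentile of each array was analysed (39 of 58201 probes had no spot left). Probes were named through RefSeq accessions of the files and the GRCh38.p14 gene table (31079 named). A probe was tested where some group had both of its arrays well above background. These 33753 probes were fitted with limma 3.58.1 in R 4.3.3, with 1 mean per group and Benjamini-Hochberg adjustment over all of them. A call needed an adjusted p under 0.05 and a fold of at least 2, except for the difference between lines, which needed the adjusted p alone. A bound for a dim probe set the bright group's mean against, on each dim array, the higher of the probe's own signal and the lowest signal well above background. The number of arrays limits the precision. Genes were named by rule: all members at every probe, all genes of lists of up to 9 genes, the 4 largest changes per line of longer lists among genes not dim on any array of the line, and the 3 genes most like each member. WEE1, SLBP, CASP8AP2, PRIM1, RRM1 and MAP3K5 were named after their values were seen. The members and lists were chosen with earlier results of these data known. The fit was tested on simulated data. Deviations of arrays with the same replicate number correlated at 0.00085 to 0.056 over the tested probes, so no strong shared shift was seen. This cannot show whether such arrays were handled together. Alternatives were other filters, background corrections, normalizations, tests, fold thresholds and probe rules, a replicate block, and leaving out each array in turn.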

Additional observations from a re-analysis of the deposited data

Results flagged for a closer look

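The drug contrast differed between the lines, by the limma test of the OVSAHO change minus the KURAMOCHI change at an adjusted p under 0.05, for 6 of 8 members, where 22.9% of all probes passed. Of 103 list genes tested, 30 passed in the same direction as the members, where 11.7% of all probes did, and 6 in the other. Of these, 17 were among the genes named by rule, partly for the size of their changes. The differences of the members were -0.78 for E2F1, -0.55 for E2F2, -0.33 for E2F4, -0.45 for E2F5, -0.56 for E2F7 and -1.20 for E2F8. Among partners and the MuvB group, the differences were -0.38 for TFDP1, -0.74 for LIN9, -0.70 for LIN52, -0.34 for MYBL1, -0.49 for FOXM1 and 0.38 for LIN37, which rose in OVSAHO. Among S phase targets they were -1.25 for MCM10, -0.98 for GINS2, -0.89 for RRM2, -0.79 for UHRF1 and 0.59 for ORC1, which fell further in KURAMOCHI. Those of genes of G2 and mitosis were -0.61 for BUB1B, -0.46 for CCNA2 and -0.29 for KIF23. Among the apoptosis genes they were 2.55 for BBC3, 0.81 for TP53INP1 and -0.31 for BCL2L11, which rose further in KURAMOCHI.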

How the results depend on the processing

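The count of 4 members called in OVSAHO was 4 or 5 under every alternative run, and the 3 called in KURAMOCHI ranged from 2 to 4. The count of members whose drug contrast differed between lines (6) was 3 without filtering dim probes, 7 with normexp and 3 to 5 when each array was left out in turn. With the replicate number as a block it was 4, since E2F2 (adjusted p = 0.0536) and E2F4 (adjusted p = 0.0696) were lost. The block changed no other count of members or list genes called. Of all probes, 29.3% passed the test of the difference with normexp and 19.1% with the block, beside 22.9% in the main fit. At a fold of 1.5, 4 of 8 members were called between the lines in place of 1. This is near the 51.7% of all probes called there at that fold, so it is no result about the members. In KURAMOCHI 63 list genes were then called lower in place of 29, with 13.4% of all probes called in either direction. Leaving out 1 array gave 24 to 29 list genes there, 51 or 52 in OVSAHO (52 with all arrays), 2 or 3 members called in KURAMOCHI, 4 in OVSAHO and 1 between lines. The change of E2F3 in OVSAHO turned sign to -0.034 with normexp and ranged from -0.072 to 0.083 with 1 array left out. Over all probes, normexp called 4.61% in OVSAHO, 1.95% in KURAMOCHI and 19.1% between lines, and no filter called 7.05%, 3.41% and 21.8%, with 6.76% for the difference between lines. The methods' two-way test called 3.29% in KURAMOCHI. Leaving out 1 array called as few as 14.8% for the difference. The causes of these shifts were not tested. The second E2F7 probe was limited by signal over background, with both simvastatin groups not well above it.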
